A study of Mus musculus with 6 samples.

Results

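Transcripts of 9 secreted cytokines were followed in mouse leukemia cells labelled *Phf6* wild type or *Phf6* knockout. They were taken by gene symbol and were *Il3*, *Il4*, *Il5*, *Il6*, *Il13*, *Osm*, *Lif*, *Csf1* and *Csf2*, out of 54532 genes in the expression table. Bulk RNA-seq was done on GFP+ leukemia cells sorted from mouse bone marrow, with 3 libraries for each genotype, numbered 1, 2 and 3 for WT *Phf6,RE9a* and 11, 12 and 13 for VC *Phf6,RE9a*. Both groups started from lineage-negative fetal liver cells of male embryos that carried a floxed *Phf6* allele, and both received a retrovirus for RUNX1-ETO9a (RE9a), a truncated leukemia fusion protein, together with GFP. The VC cells also carried Vav1-Cre, which deletes the floxed allele in blood cells from early development onward, while the WT cells had no Cre. The leukemias were kept by serial transplantation. The labels do not say which passage each library came from, or whether the 3 libraries of a group came from separate leukemias or mice, so the p-values below measure the spread between these libraries only.

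These cytokines act on cells that carry the matching receptor chains, and most of them signal through JAK kinases and STAT factors. IL-4, IL-5 and IL-13 are the type 2 cytokines, known from T helper 2 cells, mast cells, basophils and eosinophils, and their genes lie in one cluster. IL-6, oncostatin M (*Osm*) and leukemia inhibitory factor (*Lif*) form the IL-6 family and share the signalling chain gp130 (*Il6st*). IL-3, GM-CSF (*Csf2*) and M-CSF (*Csf1*) drive growth and maturation of myeloid cells, and M-CSF differs from the others in acting through a receptor tyrosine kinase, *Csf1r*.

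The libraries held 15675358 to 16817994 counts, a count being a read or fragment assigned to a gene. Counts of *Phf6* were 1044, 827 and 1142 in the WT libraries and 388, 314 and 331 in the VC libraries, lower in every VC library, which held 31.5% of the WT level in CPM. Counts over the whole gene cannot show whether the floxed exons were missing from these transcripts. Levels of 1 gene are given below as CPM, counts scaled to library size by TMM, a normalization that sets the bulk of genes equal between libraries. Changes are log2 fold changes of VC against WT, and a gene was called where the quasi-likelihood test of edgeR gave an adjusted p (Benjamini-Hochberg, over the 14169 genes tested) under 0.05. The median log2 fold change of all these genes was 0.013. In sorted bulk cells, fewer cells that express a gene and less RNA per cell cannot be told apart.

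Enough counts for a test were found for 6 of the 9 cytokines. In VC *Phf6,RE9a* cells 5 of the 6 fell (*Il4*, *Il6*, *Il13*, *Lif* and *Csf1*), 0 rose, and *Osm* was not called. Among all genes tested, 22.7% were lower and 21.5% were higher. Of the 6, 4 (*Il6*, *Il13*, *Lif* and *Csf1*) had a fitted fall of 16-fold or more, a size that 1.48% of all genes tested reached. The 16-fold cut was not part of the planned tests, so this share only describes the size of the falls. *Il6* and *Lif* passed the filter on low counts only through the WT libraries, so they had to differ, and the counts of members describe these genes and support nothing beyond them.

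**Figure D1:**
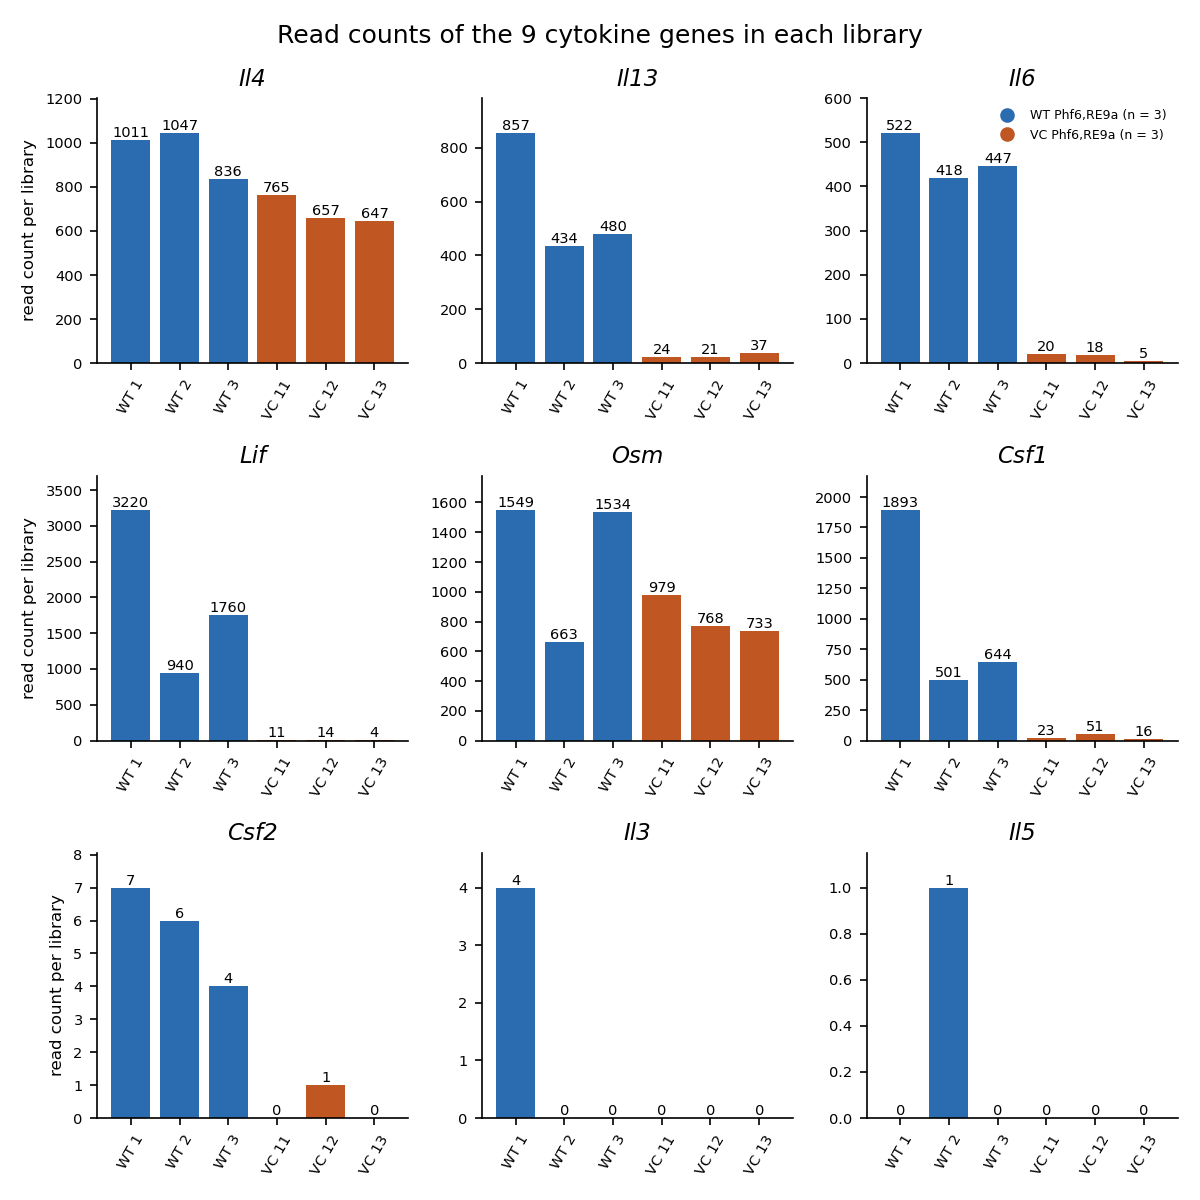
Counts of each cytokine gene (vertical axis, counts per library, a separate scale in each panel) in the 3 WT (blue bars) and 3 VC libraries (orange bars), 1 bar a library. *Il13*, *Il6*, *Lif* and *Csf1* are nearly empty in the VC libraries, *Il4* and *Osm* are not, and *Il3*, *Il5* and *Csf2* stay between 0 and 7 counts throughout.

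*Il4* and *Il13* sit side by side on chromosome 11 and changed by very different amounts. *Il4* (chr11:53602982-53618669, minus strand, GRCm38) encodes the cytokine that switches B cells to IgE and drives T helper 2 cells. It had 1011, 1047 and 836 counts in the WT libraries and 765, 657 and 647 in the VC libraries. The lowest WT library stayed above the highest VC library. Its mean level went from 62.4 ± 10.6 CPM (SD, n = 3) to 40.6 ± 3.93 CPM (n = 3), a log2 fold change of -0.62 with a standard error of 0.14 and an edgeR adjusted p of 0.00998. The VC cells thus held 65.1% of the WT level.

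*Il13* (chr11:53631324-53634702, minus strand) encodes a cytokine close to IL-4 that acts on epithelium, smooth muscle and macrophages. In chromosome coordinates *Il4* ends 12.7 kb before it. *Il13* had 857, 434 and 480 counts in the WT libraries and 24, 21 and 37 in the VC libraries. Every VC library was far under every WT library, and the WT libraries themselves differed by 1.92-fold in CPM. Mean levels were 38.0 ± 15.2 and 1.61 ± 0.516 CPM (SD, n = 3 each), a 23.6-fold difference of means. The log2 fold change was -4.55 with a standard error of 0.36 and an edgeR adjusted p of 9.69e-05.

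The ratio of *Il13* to *Il4* shows the gap within each library. It used the deposited FPKM, fragments scaled to gene length and to a library size, which allows levels of different genes to be compared. That library size was not the total count (15405790 against 16817994 in WT replicate 1, 17287188 against 16095424 in VC replicate 12). Both genes of a library share it, so it does not alter their ratio. The ratio was 0.863, 0.422 and 0.585 in the WT libraries and 0.0319, 0.0325 and 0.0582 in the VC libraries. On the log2 scale it moved by -3.93, from -0.744 ± 0.517 to -4.67 ± 0.493 (SD, n = 3 each). The exact permutation test over libraries gave a two-sided p of 0.1, the smallest that 3 against 3 can give, and 0.1 after adjustment over the 2 gene pairs compared. Both pairs were chosen after their values were seen.

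The third type 2 cytokine, *Il5* (chr11:53720794-53725106, plus strand), the growth factor of eosinophils, lies 86.1 kb beyond *Il13*. It had 1 count in 1 WT library (replicate 2) and 0 in the other libraries, and its annotated antisense neighbour *Gm12214* had 0 in all. A count of 0 allows at most 3 counts, which was 0.182 to 0.204 CPM in the WT libraries and 0.175 to 0.178 CPM in the VC libraries, so a change of *Il5* was not detectable at this depth. The type 2 cytokine counts of these cells thus came from *Il4* and *Il13*, apart from that 1 count.

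The sequence before the start of *Il4* and *Il13* is shown because the neighbours moved so differently. Each line holds the 250 bases upstream of the RefSeq start on GRCm38.p6, read 5' to 3' on the gene's strand, with matches to 7 short motifs in capitals. The motifs, searched on both strands, were TGANTCA for AP-1, TTGNGCAA for C/EBP, AGATAA for the GATA factors, GGAAAA for NFAT, TGTGGT for RUNX and TTCNNNGAA for STAT factors, with N for any base. The motif for NF-kB was GGGA followed after 2 bases of any kind by TTCC. *Il4* lies on chr11:53618666-53618915 and *Il13* on chr11:53634703-53634952, both minus strand.
Il4: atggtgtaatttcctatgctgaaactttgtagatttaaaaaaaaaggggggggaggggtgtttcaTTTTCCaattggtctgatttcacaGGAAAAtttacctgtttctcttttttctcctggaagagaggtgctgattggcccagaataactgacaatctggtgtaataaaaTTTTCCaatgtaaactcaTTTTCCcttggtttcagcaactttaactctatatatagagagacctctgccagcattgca
Il13: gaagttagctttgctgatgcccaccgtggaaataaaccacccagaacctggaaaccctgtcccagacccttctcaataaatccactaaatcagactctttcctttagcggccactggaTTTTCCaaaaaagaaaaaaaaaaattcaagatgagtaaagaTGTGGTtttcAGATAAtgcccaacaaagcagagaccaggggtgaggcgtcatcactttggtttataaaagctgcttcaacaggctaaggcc

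The *Il4* window held 4 NFAT matches and no other of the 7 motifs. The *Il13* window held 1 NFAT match (bases 132 to 127 before the start), 1 RUNX match (91 to 86) and 1 GATA match (81 to 76). Over 32851 RefSeq promoter windows, these letters occurred in 20.4%, 14.0% and 9.99% of windows for NFAT, RUNX and GATA. A match is a run of letters and does not show that a factor binds there.

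Within the IL-6 family, *Il6* and *Lif* were almost lost in VC cells, whereas *Osm* was not called. *Il6* (chr5:30013114-30019981, plus strand) encodes the acute-phase and inflammatory cytokine after which the family is named. Its counts were 522, 418 and 447 in the WT libraries and 20, 18 and 5 in the VC libraries. The WT libraries lay close together, within 1.25-fold, and no VC library came near them. Mean levels were 29.8 ± 3.63 and 0.842 ± 0.477 CPM (SD, n = 3 each), so the VC cells held 2.83% of the WT level. The log2 fold change was -5.13 with a standard error of 0.37 and an edgeR adjusted p of 7.22e-05.

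*Lif* (chr11:4257557-4272514, plus strand) encodes a cytokine first known for making a myeloid leukemia line differentiate and later for keeping mouse embryonic stem cells undifferentiated. It had 3220, 940 and 1760 counts in the WT libraries and 11, 14 and 4 in the VC libraries. No other member fell as far. WT replicate 1 stood 3.28-fold above WT replicate 2 in CPM, yet replicate 2 was still far above every VC library. Mean levels were 126 ± 74.7 and 0.568 ± 0.298 CPM (SD, n = 3 each), a 223-fold difference of means. The log2 fold change was -7.78 (95% interval -9.19 to -6.36, standard error 0.61, edgeR adjusted p 9.69e-05).

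*Osm* (chr11:4236420-4241026, plus strand), whose product is made mainly by myeloid cells, ends 16.5 kb before *Lif* starts on the same strand. Its counts were 1549, 663 and 1534 in the WT libraries and 979, 768 and 733 in the VC libraries. The groups overlapped, since WT replicate 2 at 44.98 CPM fell within the VC range of 43.6 to 57.8 CPM. Mean levels were 79.5 ± 30.1 and 48.7 ± 7.91 CPM (SD, n = 3 each). The log2 fold change of -0.71 (95% interval -1.36 to -0.055) had an edgeR adjusted p of 0.0754. This call turned on WT replicate 2, without which the log2 fold change was -0.9997 and the edgeR adjusted p 0.00149. DESeq2, run as an alternative on all 6 libraries, also called it (adjusted p 0.0277).

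The ratio of *Lif* to *Osm* in FPKM was 1.09, 0.741 and 0.599 in the WT libraries and 0.00587, 0.00952 and 0.00285 in the VC libraries. WT cells thus held the transcripts of both neighbours at like levels per length, and VC cells held almost only *Osm*. On the log2 scale the ratio moved by -7.18, from -0.351 ± 0.435 to -7.53 ± 0.876 (SD, n = 3 each), with an exact permutation p of 0.1, two-sided, which again is the smallest possible.

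The windows before *Il6* (chr5:30012864-30013113, plus strand) and *Lif* (chr11:4257318-4257567, plus strand) are shown as those of the genes with the lowest share of the WT level in their family, in the same form.
Il6: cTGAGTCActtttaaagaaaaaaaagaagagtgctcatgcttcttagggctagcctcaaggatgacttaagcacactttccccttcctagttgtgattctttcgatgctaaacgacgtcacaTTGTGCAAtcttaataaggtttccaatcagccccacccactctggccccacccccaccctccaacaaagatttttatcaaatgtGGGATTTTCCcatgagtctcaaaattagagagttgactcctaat
Lif: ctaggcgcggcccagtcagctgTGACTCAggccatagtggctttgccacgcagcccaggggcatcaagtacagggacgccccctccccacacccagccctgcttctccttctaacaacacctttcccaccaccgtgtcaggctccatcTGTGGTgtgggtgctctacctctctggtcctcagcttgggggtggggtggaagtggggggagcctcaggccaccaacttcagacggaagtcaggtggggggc

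The *Il6* window held an NF-kB match 44 to 35 bases before the start, a C/EBP match at 128 to 121 and an AP-1 match at 249 to 243. The end of the NF-kB match is also an NFAT match. These letters were found in 1.21%, 2.61% and 6.75% of all RefSeq windows for NF-kB, C/EBP and AP-1. The *Lif* window held an AP-1 match at 228 to 222 and a RUNX match at 102 to 97. Of the 8 members found in the RefSeq promoter table, *Csf1* was the other one with an NF-kB match (154 to 145 before its start), while the *Il5* window held none of the 7 motifs. Without a measure of binding or chromatin, these matches say nothing on the changes above.

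Among the colony stimulating factors and IL-3, *Csf1* was expressed in WT cells and *Csf2* and *Il3* were close to or under the floor. *Csf1* (chr3:107741048-107760469, minus strand) encodes M-CSF, the growth factor of monocytes and macrophages. It had 1893, 501 and 644 counts in the WT libraries and 23, 51 and 16 in the VC libraries. WT replicate 1 stood well above the other two, but the groups did not overlap. Mean levels were 65.3 ± 49.95 and 1.76 ± 1.07 CPM (SD, n = 3 each), and the VC cells held 2.7% of the WT level. The log2 fold change was -5.20 (95% interval -6.73 to -3.68, standard error 0.66, edgeR adjusted p 0.000695). Without WT replicate 1 it was -4.37, and without VC replicate 12 it was -5.81.

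*Csf2* (chr11:54247271-54249667, minus strand), the gene of GM-CSF, had 7, 6 and 4 counts in the WT libraries and 0, 1 and 0 in the VC libraries. Summed over libraries, the scaled ratio of VC to WT was 0.0539, with an exact 95% interval of 0.00129 to 0.344 that covers counting error only. *Csf2* did not pass the filter and has no test here. It also overlaps an antisense gene, *Gm12223*, which had 2 counts in WT replicate 2 and 2 in VC replicate 11, and whether strand was used in counting is not given in the sources used here. *Il3* (chr11:54265303-54267277, minus strand), a growth factor for mast cells, basophils and early progenitors, had 4 counts in WT replicate 1 and 0 in the 5 other libraries. The *Il3* and *Csf2* genes lie 15.6 kb apart, so 7 of the 9 members are on chromosome 11.

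Of the 6 tested cytokines, 5 had every VC library under every WT library, a pattern that 28.4% of all genes tested showed. They were the same 5 that were called lower, so this pattern is not separate support for the calls. The 9 cytokines summed to 588.4, 272.1 and 345.3 CPM in the WT libraries and to 107.6, 89.1 and 85.7 CPM in the VC libraries.

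The order of levels per gene length also changed. In WT cells the FPKM order was *Il4* (50.6 ± 8.69), *Osm* (34.8 ± 13.2), *Il13* (31.4 ± 12.8), *Lif* (28.9 ± 17.2), *Csf1* (12.3 ± 9.49) and *Il6* (12.2 ± 1.56; SD, n = 3). The ranges of neighbours in this order overlapped over the libraries, although *Il4* had the highest FPKM within each WT library. In WT replicate 3 it was close to *Osm*, at 40.8 against 40.4 FPKM. *Csf2*, *Il3* and *Il5* followed at under 1 FPKM. In VC cells *Il4* (32.7 ± 3.16 FPKM) stood above *Osm* (21.2 ± 3.44), *Osm* above *Il13* (1.32 ± 0.415) and *Il13* above *Il6* (0.343 ± 0.195), with no overlap between neighbours. *Il6*, *Csf1* (0.330 ± 0.202) and *Lif* (0.129 ± 0.0681) overlapped in VC cells.

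*Il4* and *Osm* together made up 42.5%, 57.4% and 54.9% of the members' summed FPKM in the WT libraries and 96.8%, 95.7% and 95.9% in the VC libraries. This summed share differed less between the VC libraries than between the WT libraries. With *Il6*, *Il13*, *Lif* and *Csf1* so low in VC cells, it had little room to vary there. The share of *Il6* went from 7.38% ± 1.28 to 0.60% ± 0.32 (SD, n = 3 each), and that of *Il13* from 18.1% ± 1.97 to 2.40% ± 0.921. The share of *Il4* went from 31.2% ± 10.2 to 58.5% ± 1.14 although its own level was lower.

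**Figure D2:**
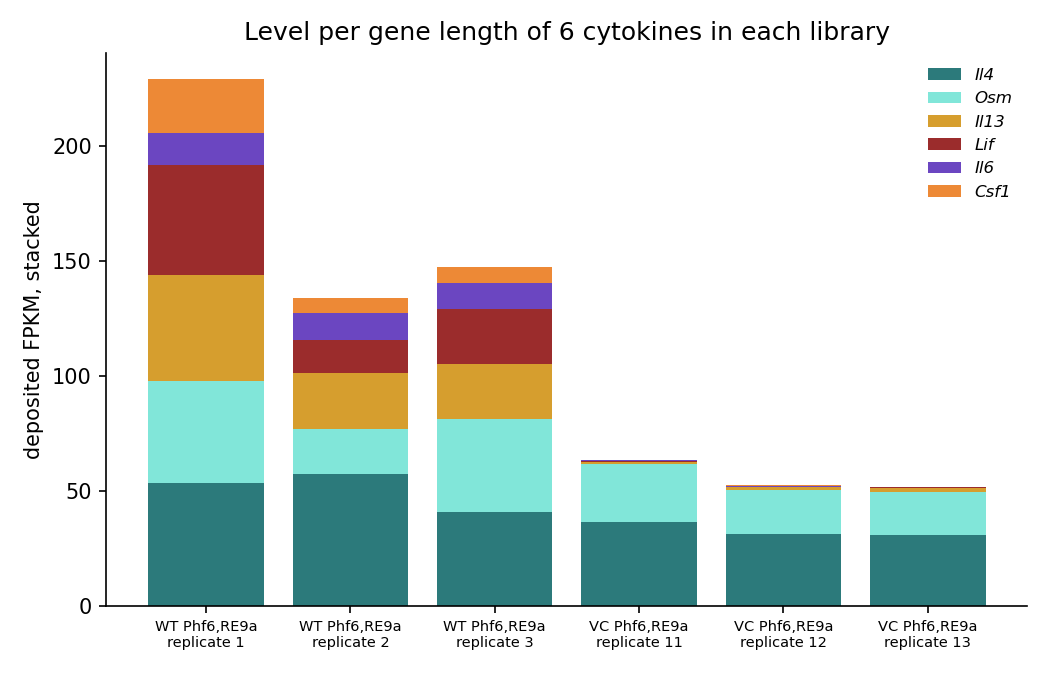
Deposited FPKM (vertical axis) of the 6 tested cytokines, stacked for each of the 6 libraries. The sum over all 9 cytokines, of which *Csf2*, *Il3* and *Il5* are not drawn, was 134.4 to 230.2 FPKM in the WT libraries. In the VC libraries it was 51.7 to 63.5 FPKM, nearly the whole of it from *Il4* and *Osm*.

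The libraries of a group did not all move together. WT replicate 1 had the highest CPM of its group for 5 of the 6 tested cytokines and WT replicate 2 for the remaining one, *Il4*. WT replicate 2 was lowest for *Osm*, *Lif* and *Csf1*, and WT replicate 3 for *Il4*, *Il6* and *Il13*. The ratio of the highest to the lowest WT library was 3.62 for *Csf1*, 3.28 for *Lif* and 2.24 for *Osm*, but 1.40 for *Il4* and 1.25 for *Il6*. The coefficient of variation of *Csf1* over WT libraries was 76.5%, where counting alone would give 3.14%. In the VC libraries *Il6* varied by 3.97-fold and *Lif* by 3.43-fold, at 20 counts or fewer in each library. VC replicate 13 was lowest for *Il6*, *Osm*, *Lif* and *Csf1* and highest for *Il13*.

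The receptor chains of these cytokines were called in both directions. Of 14 chains, 12 were tested, of which 5 were lower, 3 higher and 4 not called, with a median log2 fold change of 0.56, where 22.7% of all genes tested were lower and 21.5% higher. The share of chains called higher is thus near that of all genes. The chain with the highest fold change was *Lifr*, the ligand-binding chain of the LIF receptor. *Lifr* had 7, 24 and 24 counts in the WT libraries and 1210, 1521 and 1087 in the VC libraries, so that ligand and receptor transcripts lay in opposite groups. It passed the filter on low counts only through the VC libraries, so it had to differ, and it left the test when 10 counts were required in every library. Its level went from 1.18 ± 0.633 to 74.9 ± 12.4 CPM (SD, n = 3 each), a log2 fold change of 5.98 with a standard error of 0.33 and an edgeR adjusted p of 2.84e-05.

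The other chains of the IL-6 family were low in both groups. *Il6ra*, which binds IL-6, had 25, 27 and 68 counts in the WT libraries and 203, 148 and 89 in the VC libraries and rose by 1.77 on the log2 scale (edgeR adjusted p 0.0146, or 0.0537 without VC replicate 11). *Il6st*, the shared chain gp130, had 20, 78 and 47 counts against 111, 104 and 68, and its edgeR adjusted p was 0.196, or 0.0331 without WT replicate 2. The oncostatin M receptor chain *Osmr* had 0 counts in all 6 libraries, as did the IL-13 decoy receptor *Il13ra2*. *Csf1r*, the receptor for M-CSF, had 90, 159 and 131 counts in the WT libraries and 293, 200 and 131 in the VC libraries, with an edgeR adjusted p of 0.200.

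For IL-4 and IL-13, *Il4ra* and the common gamma chain *Il2rg* were both lower in VC cells. *Il2rg* had 2338, 1933 and 2617 counts in the WT libraries and 782, 726 and 666 in the VC libraries (log2 fold change -1.79, standard error 0.11, edgeR adjusted p 3.73e-05). *Il4ra* fell less, from 172 ± 38.3 to 115 ± 10.8 CPM (SD, n = 3 each; log2 fold change -0.58, edgeR adjusted p 0.0202), and this call was lost without VC replicate 11 (adjusted p 0.0526) or VC replicate 12 (0.078). *Il13ra1*, the other chain that binds IL-13, had 1 to 12 counts in the WT libraries and 9 to 49 in the VC libraries, with an edgeR adjusted p of 0.0627. It passed without WT replicate 3 (0.0364) or VC replicate 13 (0.0327).

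The chains for IL-3, IL-5 and GM-CSF split in direction. *Il3ra*, which binds IL-3, had 256, 665 and 162 counts in the WT libraries and 36, 29 and 27 in the VC libraries, a log2 fold change of -3.72 (standard error 0.58, edgeR adjusted p 0.00184). Without WT replicate 2, which was the highest, it was -2.88. *Csf2ra*, which binds GM-CSF, went the other way, with 706, 473 and 680 counts against 1371, 1196 and 1120 (log2 fold change 0.87, edgeR adjusted p 0.00255). The shared beta chain *Csf2rb* and its mouse paralog *Csf2rb2*, which serves IL-3 alone, fell by 0.84 and 1.57 on the log2 scale (edgeR adjusted p 0.00263 and 0.000236). These paralogs are so alike that reads may have been split between them, which leaves their separate values uncertain. *Il5ra*, the IL-5 chain, had a log2 fold change of 0.53 (95% interval 0.044 to 1.01, edgeR adjusted p 0.0740, or 0.0248 without VC replicate 11).

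**Figure D3:**
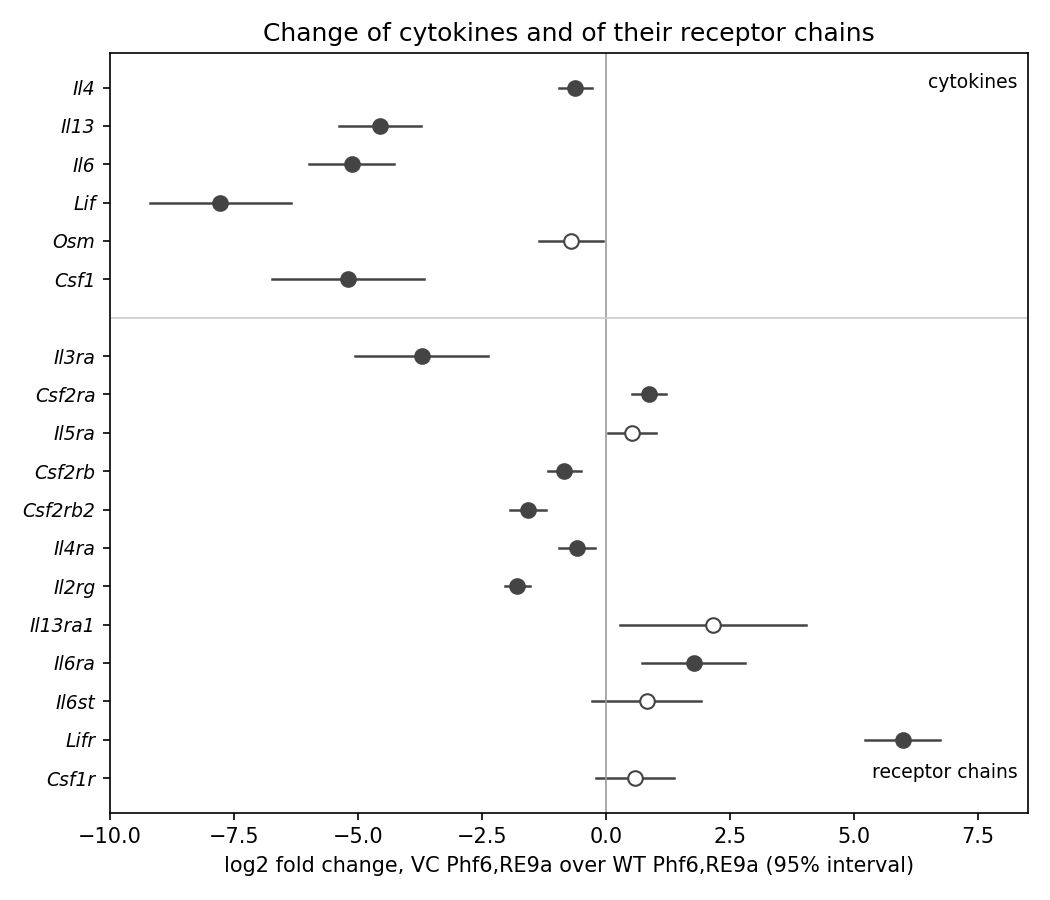
Log2 fold change of VC against WT (horizontal axis) with its 95% interval for the 6 tested cytokines and 12 tested receptor chains. Filled points had an edgeR adjusted p under 0.05 and open points did not. *Lif* lies at -7.78, the lowest cytokine, and *Lifr* at 5.98, the highest receptor chain.

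Most other cytokine genes of these families had too few counts for a test. Of 22 further interleukins and hematopoietic cytokines, 3 were tested, 10 had some counts but did not pass the filter, and 9 had 0 counts in every library, among them the T cell growth factor *Il2*, the mast cell and eosinophil activating cytokine *Il33* and the *Csf1r* ligand *Il34*. *Clcf1*, an IL-6 family cytokine, had 9, 2 and 6 counts in the WT libraries and 17, 25 and 15 in the VC libraries and rose by 1.60 on the log2 scale (edgeR adjusted p 0.0345). It passed the filter only through the VC libraries, so it had to differ. *Flt3l*, the ligand of the progenitor receptor FLT3, fell by 0.37 (edgeR adjusted p 0.0102). *Il15* had a log2 fold change of -0.33 and an edgeR adjusted p of 0.431.

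Genes of the JAK-STAT pathway were mostly lower in VC cells. The list held the JAK kinases, STAT factors and genes that cytokines are known to induce through them. Of these 18 genes, 12 were lower, 1 was higher and 5 were not called, with a median log2 fold change of -0.43. The shares over all genes tested were 22.7% lower and 21.5% higher. *Pim2*, a survival kinase, went from 33.4 ± 6.08 to 7.47 ± 1.27 CPM (SD, n = 3 each; log2 fold change -2.16, edgeR adjusted p 0.00017). *Socs1*, a feedback inhibitor of JAK kinases, went from 56.1 ± 9.22 to 19.4 ± 3.61 CPM (log2 fold change -1.53, edgeR adjusted p 0.000422). *Pim1* and *Jak1* fell by 0.42 and 0.35 on the log2 scale, and the 1 gene that rose was *Bcl6*, a transcriptional repressor (log2 fold change 2.02, edgeR adjusted p 0.0122).

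Among 28 factors known to switch cytokine genes on or off, 15 were lower, 5 higher and 8 not called. Their median log2 fold change was -0.69, and over all genes tested 22.7% were lower and 21.5% higher. *Rel*, an NF-kB subunit of activated immune cells, had 2592, 2365 and 1741 counts in the WT libraries and 270, 196 and 112 in the VC libraries (log2 fold change -3.67, edgeR adjusted p 0.000145). *Fosl2* and *Batf*, both AP-1 factors, fell by 3.12 and 2.80 on the log2 scale (edgeR adjusted p 0.00258 and 0.00431). *Batf*, with 14, 14 and 3 counts in the VC libraries, passed the filter through the WT libraries. *Fos* fell by 1.87, and *Jun* had a log2 fold change of -0.67 with an edgeR adjusted p of 0.169.

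Cytokine mRNAs are short-lived, and several genes that limit their life or translation were lower in VC cells. A list for the control of cytokine mRNAs held 11 genes, of which 5 were lower, 0 higher and 6 not called. Its median log2 fold change was -0.91, and over all genes tested 22.7% were lower and 21.5% higher. This list also held the mRNA stabilizers *Elavl1* and *Arid5a* and the phosphatase gene *Ptpn22*. *Zfp36*, which encodes tristetraprolin and binds AU-rich elements, went from 2875 ± 618 to 802 ± 234 CPM (SD, n = 3 each; log2 fold change -1.84, edgeR adjusted p 0.000944). *Zc3h12a*, the RNase Regnase-1 known to cleave the *Il6* mRNA, fell by 1.48, *Zc3h12c* by 1.44 and *Zfp36l2* by 1.18 on the log2 scale.

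Cytokine release by mast cells and basophils follows IgE receptor, KIT and IL-33 receptor signals, among others. Genes listed for mast cell and basophil activation were mostly lower. Of 17 such genes, 11 were lower, 4 higher and 2 not called, with a median log2 fold change of -0.76. They included *Il18r1*, *Cd200r3*, *Tlr2* and *Tlr4*, which lie outside those signals. Over all genes tested, 22.7% were lower and 21.5% higher. *Fcer1a*, the IgE-binding chain, had 12065, 8395 and 7528 counts in the WT libraries and 92, 92 and 86 in the VC libraries (log2 fold change -6.83, edgeR adjusted p 1.87e-05). *Ms4a2*, the beta chain of the same receptor, had a log2 fold change of -0.13 and an edgeR adjusted p of 0.519. *Fcer1g*, the gamma chain, had 35, 37 and 79 counts in the WT libraries and 306, 220 and 122 in the VC libraries and rose by 1.99 (edgeR adjusted p 0.00662). *Kit*, the stem cell factor receptor, fell by 3.15, the adaptor *Lat2* by 3.83 and the IL-33 receptor *Il1rl1* by 0.98 on the log2 scale.

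Markers of mast cells and basophils were mostly lower in VC cells. The numbers of markers called below stand beside shares of 22.7% lower and 21.5% higher among all genes tested. Of 17 mast cell markers, 16 were lower, with a summed level of 21740 to 33640 CPM in the WT libraries and 5387 to 5885 CPM in the VC libraries. The mast cell protease *Cpa3* fell by 4.62 and *Cma1* by 5.64 on the log2 scale. *Tpsb2* had 7, 874 and 36 counts in the VC libraries against 38085 to 58199 in the WT libraries. Of 10 basophil markers, 8 were lower, 1 (*Cd200r3*, log2 fold change 0.42, edgeR adjusted p 0.0395) was higher and 1 was not called (8382 to 12720 CPM summed in WT, 4582 to 5271 in VC).

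Markers of several other types were higher in VC cells. All 10 neutrophil markers were higher (151 to 467 CPM summed in WT, 949 to 3630 in VC), as were 7 of 10 eosinophil markers (55.7 to 78.2 and 143 to 209.5 CPM). B cell markers summed to 4.999 to 10.8 CPM in WT and 27.0 to 76.1 in VC, with 5 of 6 tested higher. Macrophage markers summed to 34.5 to 49.0 and 58.2 to 72.6 CPM, with 3 of 10 tested higher. The T cell and ILC2 list summed to 51.0 to 71.5 and 164.8 to 189 CPM, mostly through *Gata3*, with 2 of 5 tested higher and 1 lower. The lower one was *Cd247*, the CD3 zeta chain, with 123, 176 and 173 counts in WT and 106, 83 and 100 in VC. The other CD3 chains *Cd3d*, *Cd3e* and *Cd3g* had 0 to 6 counts in every library. *Cd8a*, not tested, had 1, 7 and 1 counts in WT and 24, 16 and 4 in VC. Stromal and endothelial markers summed to 3.26 to 8.25 and 8.38 to 11.1 CPM, with 1 of 4 tested higher and 1 lower, and *Col3a1* had 0 counts in all. Some genes, such as *Fcer1a*, stand on more than 1 list. The part of these cell types in the cytokine differences was not tested.

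Genes next to the cytokines were called in both directions. Within 200 kb of the 9 genes lay 88 other genes, of which 29 were tested, 13 lower, 8 higher and 8 not called, with a median log2 fold change of -0.25. Of all genes tested, 22.7% were lower and 21.5% higher, and the share of neighbours called higher was near the latter. *Kif3a*, a kinesin gene 1.01 kb from *Il4*, was higher in VC cells (365, 316 and 385 counts in WT, 570, 601 and 557 in VC; log2 fold change 0.57, edgeR adjusted p 0.00311). *Rad50*, a DNA repair gene 14.8 kb from *Il13*, had a log2 fold change of -0.053 and an edgeR adjusted p of 0.673. The large fall of *Il13* therefore had no match in the nearest tested genes on either side of the *Il4* and *Il13* pair.

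Around *Osm* and *Lif*, the gene *Castor1*, an arginine sensor of the mTORC1 pathway 14.0 kb from *Osm*, had 344, 422 and 390 counts in the WT libraries and 55, 58 and 54 in the VC libraries (log2 fold change -2.92, edgeR adjusted p 3.6e-05). *Osm*, which lies between *Castor1* and *Lif*, thus had a called fall on both sides of it, although the tested gene nearest to it, *Gm11956* at 5.16 kb, was not called (log2 fold change -0.84, edgeR adjusted p 0.203). Next to *Il6*, the long noncoding RNA gene *A230098N10Rik*, 4.32 kb away on the other strand, had 104, 84 and 96 counts against 18, 16 and 25 (log2 fold change -2.38, edgeR adjusted p 0.000487). *Tyms*, thymidylate synthase, on the other side at 38.2 kb, rose by 0.45 (edgeR adjusted p 0.0485). The nearest tested genes on either side of *Csf2* and *Il3* were both lower. They were *P4ha2*, 116 kb from *Csf2* (log2 fold change -3.40, edgeR adjusted p 0.00926), and *Fnip1*, 171 kb from *Il3* (-1.18, adjusted p 0.00105). *Ahcyl1*, 44.5 kb from *Csf1*, was also lower (log2 fold change -0.25, edgeR adjusted p 0.0473). *Irf1*, 44.9 kb from *Il5*, was not called (log2 fold change -0.59, edgeR adjusted p 0.0552).

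**Figure D4:**
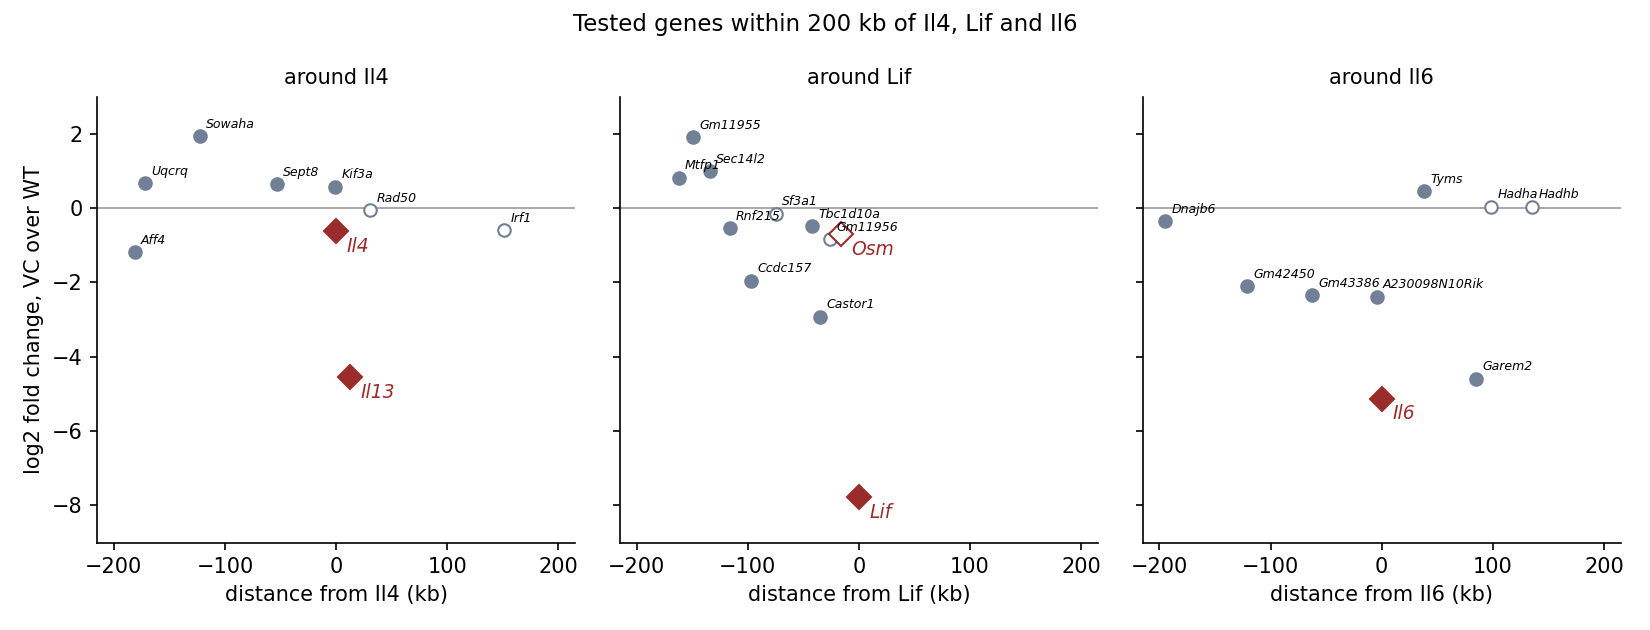
Log2 fold change of VC against WT (vertical axis) of tested genes within 200 kb of *Il4*, *Lif* and *Il6*, 1 panel each, by distance in kb (horizontal axis, higher coordinates to the right). Red diamonds are cytokine genes and grey circles other genes, and filled symbols had an edgeR adjusted p under 0.05. *Il13* at -4.55 lies beside *Il4* at -0.62, and *Lif* at -7.78 lies beside *Osm* at -0.71.

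The genes with the pattern most like each cytokine over the 6 libraries were found among 12924 genes. The measure was the root mean square difference of log2 CPM, each gene centred on its own mean. With 2 groups it mainly finds genes with a like fold change, and shared regulation was not tested. The nearest to *Il6* were *Cd69* (0.194), an early activation marker of leukocytes, and *Lilrb4a* (0.266), an inhibitory receptor. For *Il13* they were *Col15a1* (0.243), a collagen, and *Cma2* (0.286), a mast cell chymase. For *Csf1* they were *Tmem273* (0.320) and *Plau* (0.419), the urokinase gene. For *Lif* they were *Mrgpra4* (0.412), a Mas-related receptor, and *Cdh2* (0.510), N-cadherin. In VC cells *Mrgpra4* and *Cdh2* had means of 0.078 and 0.0 CPM, where the small count added before taking logs sets the value. *Il4* lay nearest to *E130317F20Rik* (0.0468) and *Osm* to *Gm16907* (0.119). Between members the values were 0.636 for *Il6* and *Csf1*, 0.476 for *Il4* and *Osm*, 1.95 for *Il4* and *Il13* and 3.44 for *Lif* and *Osm*, and they ran up to 3.49 for *Il4* and *Lif*.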

How the data were processed

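RNA from sorted GFP+ leukemia cells was made into libraries with an Illumina TruSeq kit and sequenced as paired ends on a NovaSeq instrument. The deposited table gave read counts per gene made by the authors, FPKM values made by the authors and, as a signal, the authors' mean normalized count of each group, which was not used. Columns of log2 fold change and of p-value, which the authors took from DESeq2, hold their own comparison and were not used, nor were other deposited columns such as gene annotation, beyond names, positions and lengths. The submitters' processing notes name Bowtie 0.12.0 and mm8. However, 98.33% of 54495 deposited genes had the start and end of GENCODE M21 on GRCm38, as had all 9 members. The aligner version, counter and use of strand for this table are not given in the sources used here.

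Counts were tested with edgeR 4.0.16 (quasi-likelihood, TMM, filterByExpr) in R 4.3.3, VC against WT, without covariates, on 14169 genes with Benjamini-Hochberg adjustment. CPM used TMM library sizes. Intervals are 95%. Pairs of libraries of one group differed beyond counting noise (mean chi-square per gene 11.7 to 45.2). On simulated data, 88% of 191 genes changed 4-fold were recovered, with 16 false calls among 13722. DESeq2 1.42.0, limma 3.58.1 on log2(FPKM + 1), other filters and scaling and leaving out each library were the alternatives. Promoter windows came from RefSeq (GRCm38.p6), which held 8 of the 9 members.

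The members and gene lists were chosen with earlier results of these data known. From the other lists, the genes named were the 3 with the largest called change and the 2 with the highest FPKM, of which some are given here. For each member the nearest tested genes and the genes most like it were taken, and some of these are given here. Genes at 0 counts, *Gata3*, *Fcer1g*, *Cd200r3*, *Cd8a*, the *Cd3* genes and the pairs whose ratios are given were named after their values were seen.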

Additional observations from a re-analysis of the deposited data

How the results depend on the processing

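Depth limits *Il3*, *Il5* and *Csf2*, which had 7 counts or fewer in each library. The count of cytokines called lower was 5, and it was 3 of 4 tested when at least 10 counts were required in every library, since *Il6* and *Lif* then left the test. DESeq2 and a fit without a count filter called 7 lower, with *Osm* and *Csf2* added. *Csf2* then had log2 fold changes of -4.13 (DESeq2, adjusted p 0.0408) and -3.78 (edgeR without a filter, adjusted p 0.025). *Osm* passed the threshold with DESeq2 (-0.72, adjusted p 0.0277), with edgeR without a filter (-0.72, adjusted p 0.0343) and without WT replicate 2 (-0.9997, adjusted p 0.00149). Receptor chains called lower were 3 in place of 5 where at least a 2-fold change was asked. Limma on log2(FPKM + 1) gave smaller changes, as the pseudocount makes it do at low levels, of -4.57 for *Lif* and -3.30 for *Il6*.

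Leaving out each library in turn gave 5 to 6 cytokines lower and 0 higher, and 4 to 5 receptor chains lower and 3 to 4 higher. Log2 fold changes then ran from -5.81 to -4.37 for *Csf1*, from -4.84 to -4.18 for *Il13*, from -0.76 to -0.53 for *Il4*, from -5.44 to -4.73 for *Il6*, from -8.13 to -7.21 for *Lif* and from -0.9997 to -0.51 for *Osm*. The ratio of mean levels of *Csf1* ran from -5.82 to -4.37 on the log2 scale. The *Il6ra* call was lost without VC replicate 11 (adjusted p 0.0537). *Il13ra1* passed with DESeq2 (adjusted p 0.0406), without a filter (0.0403), without WT replicate 3 (0.0364) and without VC replicate 13 (0.0327). *Il5ra* passed without VC replicate 11 (0.0248) and *Il6st* without WT replicate 2 (0.0331). None of the alternatives run reversed a direction, and 182 of 194 recomputed log2 fold changes kept their direction and their side of the threshold, while 9 newly passed it and 3 no longer did. The cause of each change was not tested. No paired analysis was possible because the WT replicates (1, 2 and 3) and VC replicates (11, 12 and 13) share no numbers.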
